A study of Mus musculus with 25 samples.

Results

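Srsf7 is the mouse gene of the RNA-binding protein SRSF7, and the data described here are the crosslink events of SRSF7 on the transcript of its own gene. The gene was taken as the minus-strand events at chr17:80595001-80610000 of mouse genome build mm9 in each of 25 libraries. This interval is 1 of 108060 strand-specific windows of 15000 nt that held at least 5 events over the UV-treated immunoprecipitates. It held 148716 events over all libraries, which is 0.581% of all events. Positions follow mm9 from the file headers. Exons, introns and UTRs were not assigned, since no mm9 annotation was used here.

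SRSF7 belongs to the SR proteins, which bind RNA through an RNA recognition motif and contact the splicing machinery through a domain rich in arginine and serine. SRSF7 also has a zinc knuckle that takes part in RNA binding. Several SR proteins, SRSF7 among them, regulate their own transcripts: the protein binds its own pre-mRNA and favours a cassette exon with a premature stop codon, so that the transcript is degraded.

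P19 is a mouse embryonal carcinoma cell line. In iCLIP, cells are irradiated with UV light to bond proteins covalently to the RNA they touch, the protein of interest is precipitated, and the end of each cDNA marks the crosslinked nucleotide. The library labels give SRSF7mutZn-GFP (mutZn, 2 libraries), SRSF7D27aa-GFP (D27aa, 2) and SRSF7-GFP overexpression (WT, 3), all precipitated with anti-EGFP and called anti-GFP libraries below. Anti-SRSF7 was used on SRSF7-GFP overexpressing cells for the products called RRM_OE (2), endo_OE (2) and GFP_OE (2), and on WT cells for endo_WT (1). The piCLIP libraries, from polysomal (poly) and monosomal (mono) material of SRSF7-GFP overexpressing cells, had 2 immunoprecipitates each, taken with anti-EGFP. Controls, with 1 library each, were mutZn, D27aa, WT and GFP_OE without UV, GFP_OE without antibody, and IgG for poly and mono, although the antibody label of both IgG libraries reads anti-EGFP. The header of the library labelled GFP_OE without UV names its condition noUV-trunc, and that of RRM_OE library 3 reads SRSF7-trunc, so label and header do not settle which product this control belongs to. The labels do not say what the names mutZn, D27aa and RRM stand for, what drives the overexpressed gene, or whether a line is 1 clone. Overexpressing cells may carry extra copies of Srsf7 sequence, so the comparisons below concern the profile inside the gene and not its total. The defining markers of P19 cells were not checked.

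The libraries held 1153 to 11782376 events, and the gene held 76 to 49673 events in the UV-treated immunoprecipitates. Some libraries stood apart at the level of single nucleotides. Concentration was measured as the number of event pairs, per 10000 pairs, that lie on the same nucleotide, a value that does not depend on the number of events drawn. It was 5.95 and 6.20 in mutZn, 39.4 and 41.3 in D27aa, and 23.8, 9.76 and 7.50 in WT libraries 2, 3 and 4. WT libraries 3 and 4 were thus nearer to mutZn than to WT library 2. The overlap of nucleotide profiles (Morisita's index, 1 for equal profiles) gave the same grouping. It was 0.826 and 0.830 between WT library 2 and the D27aa libraries, and 0.602 and 0.518 between WT library 2 and WT libraries 3 and 4. WT libraries 3 and 4 overlapped by 0.970 with each other and by 0.866 to 0.926 with mutZn. Total depth moved with this split. WT libraries 3 and 4 and both mutZn libraries held 1099389 to 11782376 events, whereas WT library 2 and both D27aa libraries held 221746 to 388768. The part of depth in the split was not tested. The file headers give WT libraries 3 and 4 the same replicate number and sequencing run, and nothing in the labels says that they came from separate cultures. Over 33 windows of 15000 nt with at least 100 events in each of the 7 libraries, the median concentration was 6.95 and 6.86 in mutZn, 39.4 and 40.8 in D27aa, and 23.5, 9.76 and 7.57 in WT. In bins of 100 nt the profile of WT library 2 overlapped by 0.969 and 0.972 with D27aa, and by 0.953 and 0.912 with WT libraries 3 and 4. WT library 4 overlapped by 0.970 and 0.952 with mutZn and by 0.992 with WT library 3. The library labels were taken as given, every comparison with WT rests on them, and whether libraries were exchanged or mixed was not tested.

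**Figure D1:**
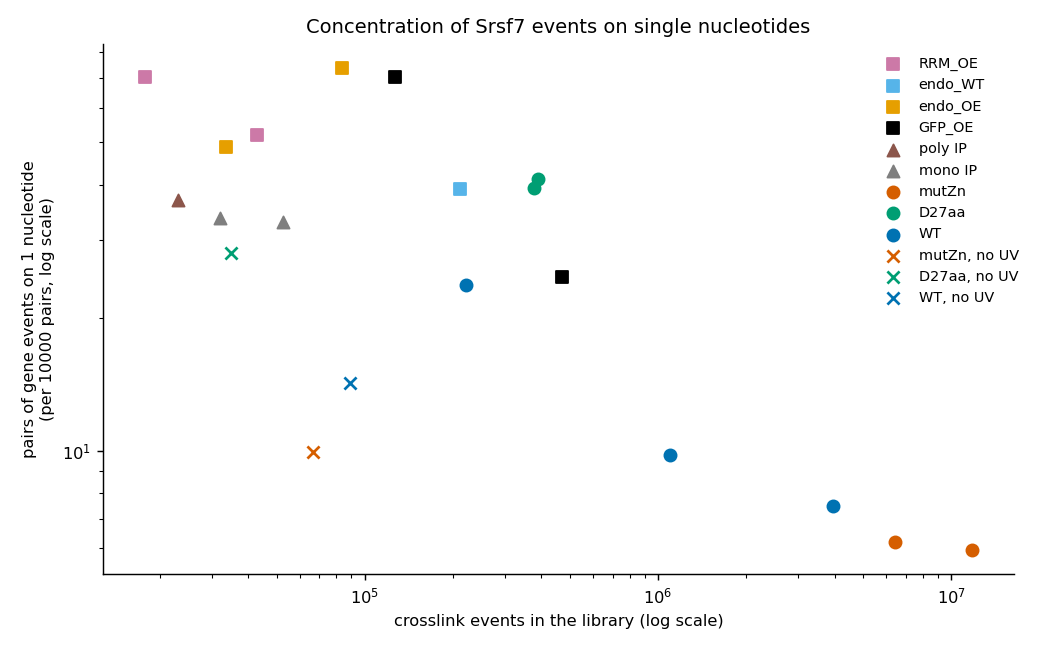
Concentration of Srsf7 events on single nucleotides (y axis, event pairs on the same nucleotide per 10000 pairs, log scale) against the total events of the library (x axis, log scale). Each point is 1 library with at least 200 events in the gene, and crosses are libraries without UV. Both mutZn libraries and WT libraries 3 and 4 lie at the lower right, between 5.95 and 9.76, and WT library 2 lies at 23.8.

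The gene took a share of library events that differed between groups. The share was 2.07% and 1.53% in RRM_OE, 2.33% and 1.20% in GFP_OE, 1.65% and 1.75% in endo_OE, 2.24% and 0.715% in mono immunoprecipitates, 1.10% and 1.04% in D27aa, 1.01% and 0.414% in poly immunoprecipitates, 0.422% and 0.382% in mutZn, 0.116% in endo_WT, and 1.58%, 1.09% and 0.902% in WT. By group mean the order was RRM_OE, GFP_OE, endo_OE, mono, WT, D27aa, poly, mutZn and endo_WT, and neighbours in this order overlapped from RRM_OE down to D27aa. The poly libraries lay below both D27aa libraries, and poly library 2 lay between the 2 mutZn libraries. The single library of cells without overexpression, endo_WT, was lowest among the UV-treated immunoprecipitates. Counting error alone gave it a 95% exact binomial interval of 0.102% to 0.132%. The number of gene copies and the binding per transcript cannot be told apart in these shares. The controls without UV held 0.657% for mutZn, 0.810% for D27aa and 0.771% for WT, and the mutZn control was thus above both UV-treated mutZn libraries. GFP_OE without UV held 2.63% (47 events) and GFP_OE without antibody 0.779% (24 events). The IgG controls held 1 of 11177 events for poly and 9 of 1153 for mono. Intervals here and below cover counting error only.

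**Figure D2:**
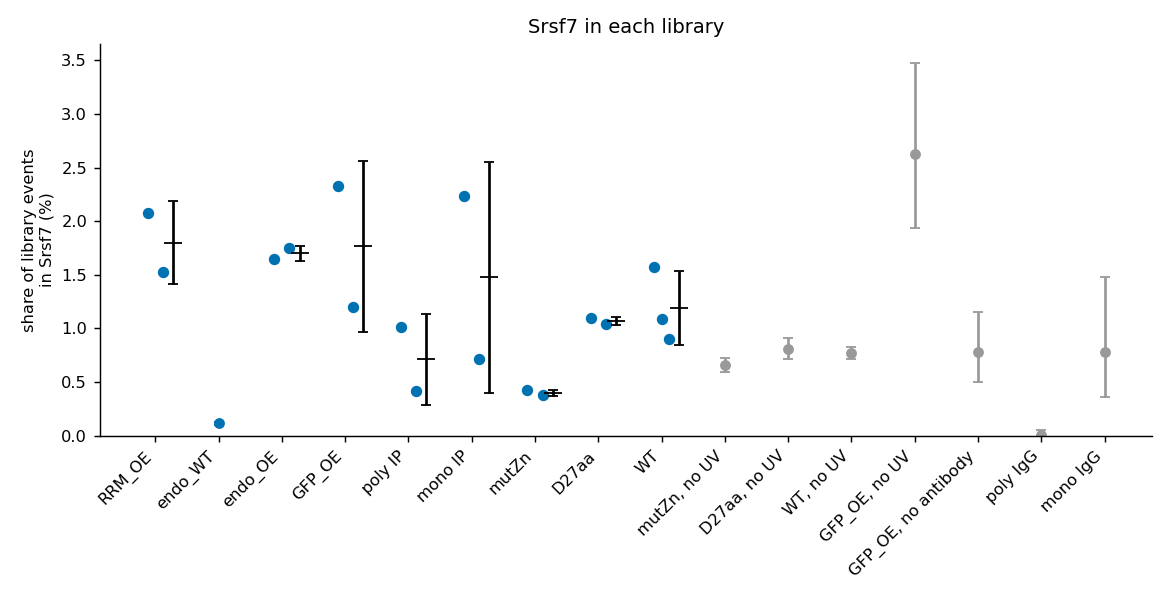
Share of library events that fall in Srsf7 (y axis, percent) for each group (x axis). Points are libraries, bars beside them are the mean ± SD, and single libraries carry the 95% exact binomial interval. The endo_WT library at 0.116% is lowest among UV-treated immunoprecipitates, and the controls without UV lie between 0.657% and 2.63%.

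Nearly all events lay within chr17:80599401-80606700, the 73 bins of 100 nt that were tested in the anti-GFP libraries. This stretch held 98.7% to 100% of gene events in the UV-treated immunoprecipitates. Within it, a cluster of 13 bins at chr17:80603501-80604800 held most events. The cluster share was 60.3% to 62.0% in mutZn, 83.5% to 83.9% in D27aa, and 68.9% to 83.2% in WT. It was 91.8% to 92.1% in RRM_OE, 92.3% in endo_WT, 92.2% to 94.0% in endo_OE and 87.6% to 93.3% in GFP_OE. In the piCLIP immunoprecipitates it was 66.2% to 68.4% for poly and 65.1% to 65.5% for mono. The cluster and the downstream stretch named below were outlined after the profiles had been seen, and their shares are descriptions without a test.

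The bin at chr17:80604001-80604100 had the highest mean share and is called the strongest bin. It was the highest bin in each UV-treated immunoprecipitate except both mutZn libraries, where bin 80604101 led with 7.55% and 6.86%, and poly library 2, where bin 80603901 led with 18.4%. Further bins are named by their first nucleotide. After this bin, the highest mean shares over the mutZn, D27aa and WT groups were in bins 80604101 (8.12%), 80604301 (7.48%), 80604201 (7.12%) and 80603501 (5.95%). The anti-SRSF7 products had the same strongest bin, followed by 80604301 (15.2%), 80603501 (11.3%), 80604401 (10.7%) and 80604101 (6.38%). The gene lies on the minus strand, so higher coordinates are nearer to the 5′ end: bin 80604301 lies 300 nt upstream and bin 80603501 500 nt downstream of the strongest bin.

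**Figure D3:**
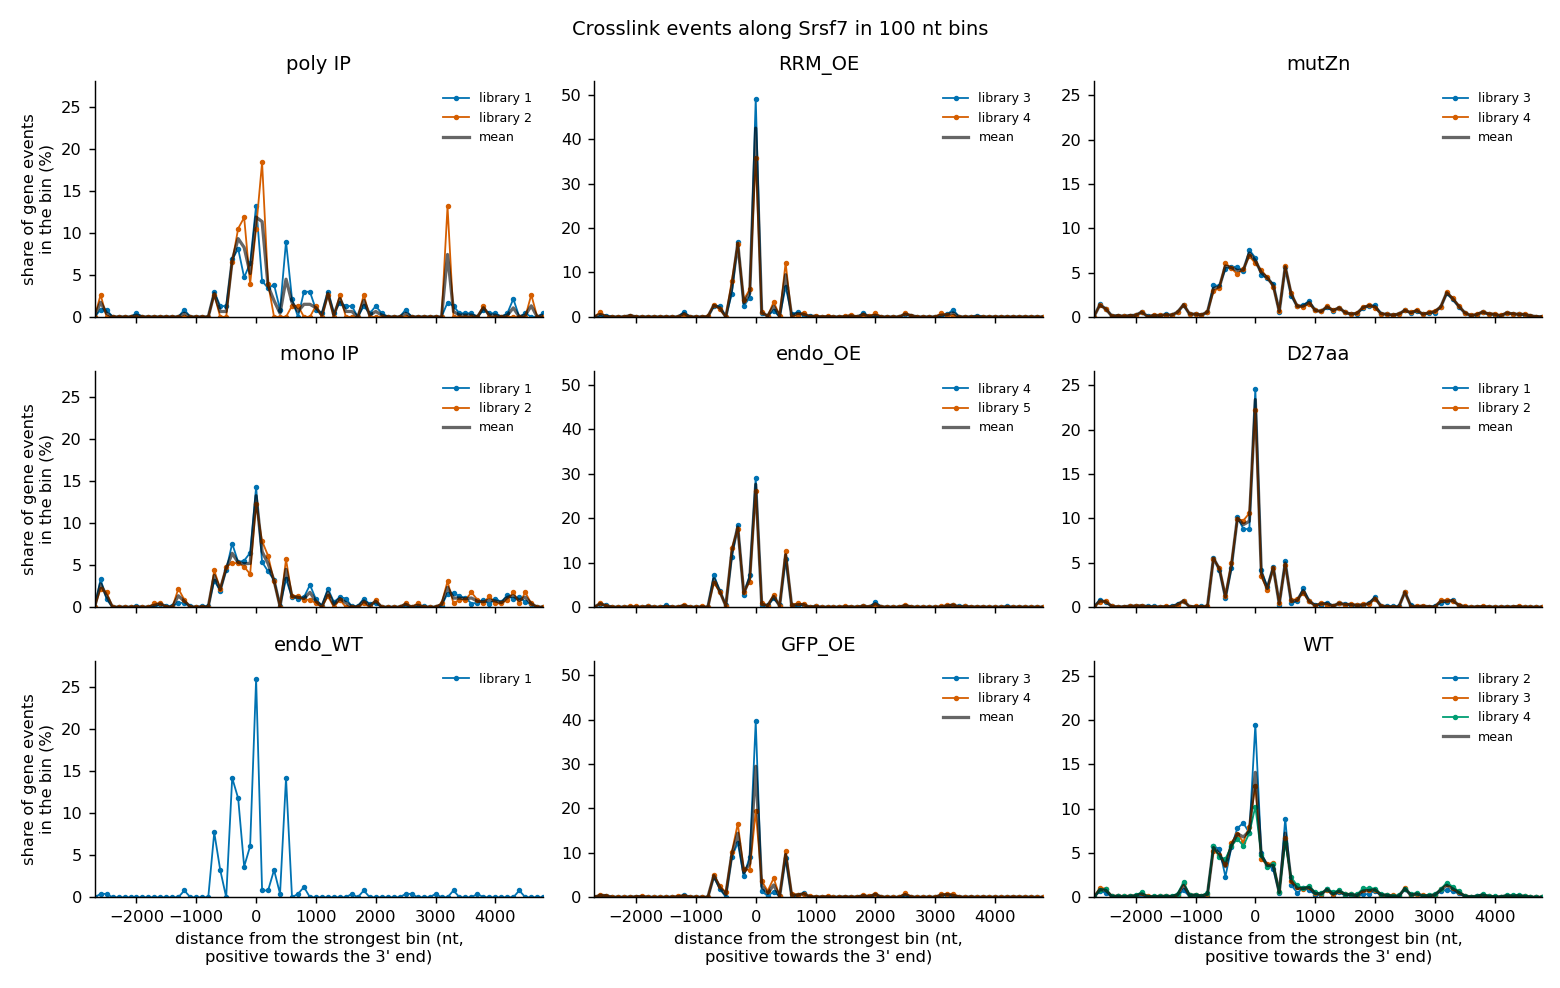
Share of the gene's events in each 100 nt bin (y axis, percent) against the distance from the strongest bin (x axis, nt, positive towards the 3′ end), for each UV-treated group. Coloured lines are libraries and the dark line is their mean. In mutZn no bin holds more than 7.55%, whereas the strongest bin reaches 24.6% in D27aa, 19.5% in WT and 49.2% in RRM_OE.

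The first comparison asked how the profile of the mutZn variant differs from that of WT. The strongest bin held 6.66% and 6.03% of gene events in mutZn, against 19.5%, 12.6% and 10.2% in WT. Both mutZn libraries lay below all WT libraries. Bin 80600501, far downstream, held 0.485% and 0.464% in mutZn, against 0.0858%, 0.167% and 0.196% in WT. Of the 73 tested bins, 8 passed an adjusted p of 0.05 (limma voom with diffSplice), 2 higher and 6 lower in mutZn. Over all bins of the genome that were tested, 3.02% passed. The log2 change used here is that of a bin relative to the other tested bins of the gene, so a change of the gene's total drops out. It need not equal the ratio of shares.

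The strongest bin fell by 1.47 ± 0.20 (SE) on this log2 scale in mutZn (adjusted p = 3.4e-08). Upstream of it, bins 80604701 (log2 change -1.19 ± 0.21, adjusted p = 6.8e-05), 80604601 (-0.87 ± 0.21), 80604301 (-0.83 ± 0.20) and 80604201 (-0.69 ± 0.21) were lower in mutZn, as was the downstream bin 80603501 (-0.68 ± 0.20). The bin that ends at 80600100 (1.38 ± 0.36, adjusted p = 0.013) and bin 80600501 (1.18 ± 0.31, adjusted p = 0.016) were higher. Bin 80604101 had -0.45 ± 0.20 and did not pass (adjusted p = 0.21). In each of the 8 called bins the 2 mutZn libraries and the 3 WT libraries did not overlap in share. Bins that did not pass could also lack overlap, such as bin 80600801 (2.65% and 2.79% in mutZn, 0.858% to 1.66% in WT). The lack of overlap is thus no added support for the calls. Without mutZn library 3, and likewise without mutZn library 4, 2 bins passed, both among the 8, and the strongest bin was 1 of them with log2 changes of -1.61 and -1.40. Without both WT libraries 3 and 4, the strongest bin had -1.83. WT library 2 alone then stood for WT and was assumed to vary like the other groups. With the sequencing run as a block 3 bins passed, all among the 8, where 0.516% of all tested bins passed. The strongest bin had -1.40 with this block (adjusted p = 0.000398). No bin passed with limma-trend on log values, where the strongest bin had -1.75 (adjusted p = 0.76), or when each crosslinked nucleotide was counted once (-1.88, adjusted p = 0.52). In that last setting a bin cannot exceed 100 positions, and 93 to 100 positions of the strongest bin were already hit in each of these 5 libraries.

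The second comparison set the D27aa variant against WT. The strongest bin held 24.6% and 22.2% in D27aa, against 19.5%, 12.6% and 10.2% in WT. Bin 80604501, in contrast, held 0.992% and 1.26% in D27aa, against 2.32%, 3.72% and 4.32% in WT. Neither bin showed overlap between the groups, and WT library 2 was nearest to D27aa in both. Of 73 bins, 8 passed, 6 higher and 2 lower in D27aa, where 2.13% of all tested bins passed. The strongest bin rose by 1.32 ± 0.21 on the log2 scale (adjusted p = 2.9e-06). Its upstream neighbours 80604101 (0.82 ± 0.23), 80604201 (0.98 ± 0.23) and 80604301 (0.97 ± 0.23) rose too. Downstream, bins 80603201 (1.35 ± 0.29) and 80601501 (1.24 ± 0.29) rose, and bin 80603401 fell by 1.18 ± 0.31. Bin 80604501 fell by 1.27 ± 0.29 (adjusted p = 0.0032).

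These calls depended on single libraries. Without D27aa library 1 the strongest bin was the 1 bin that passed, and without D27aa library 2 it was among 3 that passed, all of the 8. Without WT library 2, 17 of 74 bins passed, the 8 among them, where 1.70% of all tested bins passed. Without both WT libraries 3 and 4, where WT library 2 alone stood for WT and was assumed to vary like the other groups, 1 bin passed and none of the 8. The strongest bin then had a log2 change of 0.39 ± 0.15 (adjusted p = 0.20). With limma-trend the strongest bin had 1.68 (adjusted p = 0.060), and with each nucleotide counted once 0.91 (adjusted p = 0.66).

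The contrast between both variants was larger. The strongest bin held 6.66% and 6.03% in mutZn and 24.6% and 22.2% in D27aa, and the log2 change was -2.65 ± 0.22 (adjusted p = 4.2e-23). In this comparison 24 of 73 bins passed, 15 higher and 9 lower in mutZn, where 4.98% of all tested bins passed. Bins 80604301 (-1.65 ± 0.24), 80604201 (-1.52 ± 0.24) and 80604101 (-1.12 ± 0.24) were lower in mutZn, and bin 80601501 was lower by the largest amount after the strongest bin (-1.87 ± 0.30). Bin 80604501 was higher, with 5.39% and 6.07% in mutZn, against 0.992% and 1.26% in D27aa (log2 change 1.74 ± 0.29, adjusted p = 3.1e-06). Far downstream, the bin that ends at 80600100 held 0.236% and 0.350% in mutZn and no event in either D27aa library. Of 4134 and 4059 gene events in D27aa, counts of 0 allow shares of up to 0.0726% and 0.0739%. Here and below, such limits are the share of 3 events, an approximate bound and not an exact interval. Bins 80599501 and 80599801 (0.227% to 0.480% in mutZn, 0% to 0.0484% in D27aa) and 80601301 (0.660% and 0.785% in mutZn, 0.0242% and 0.0985% in D27aa) passed in the same direction. Leaving out D27aa library 1, D27aa library 2 or mutZn library 4 left 6, 9 and 11 called bins, all of them among the 24, and the strongest bin passed each time. No bin passed with each nucleotide counted once (strongest bin -2.60, adjusted p = 0.19).

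**Figure D4:**
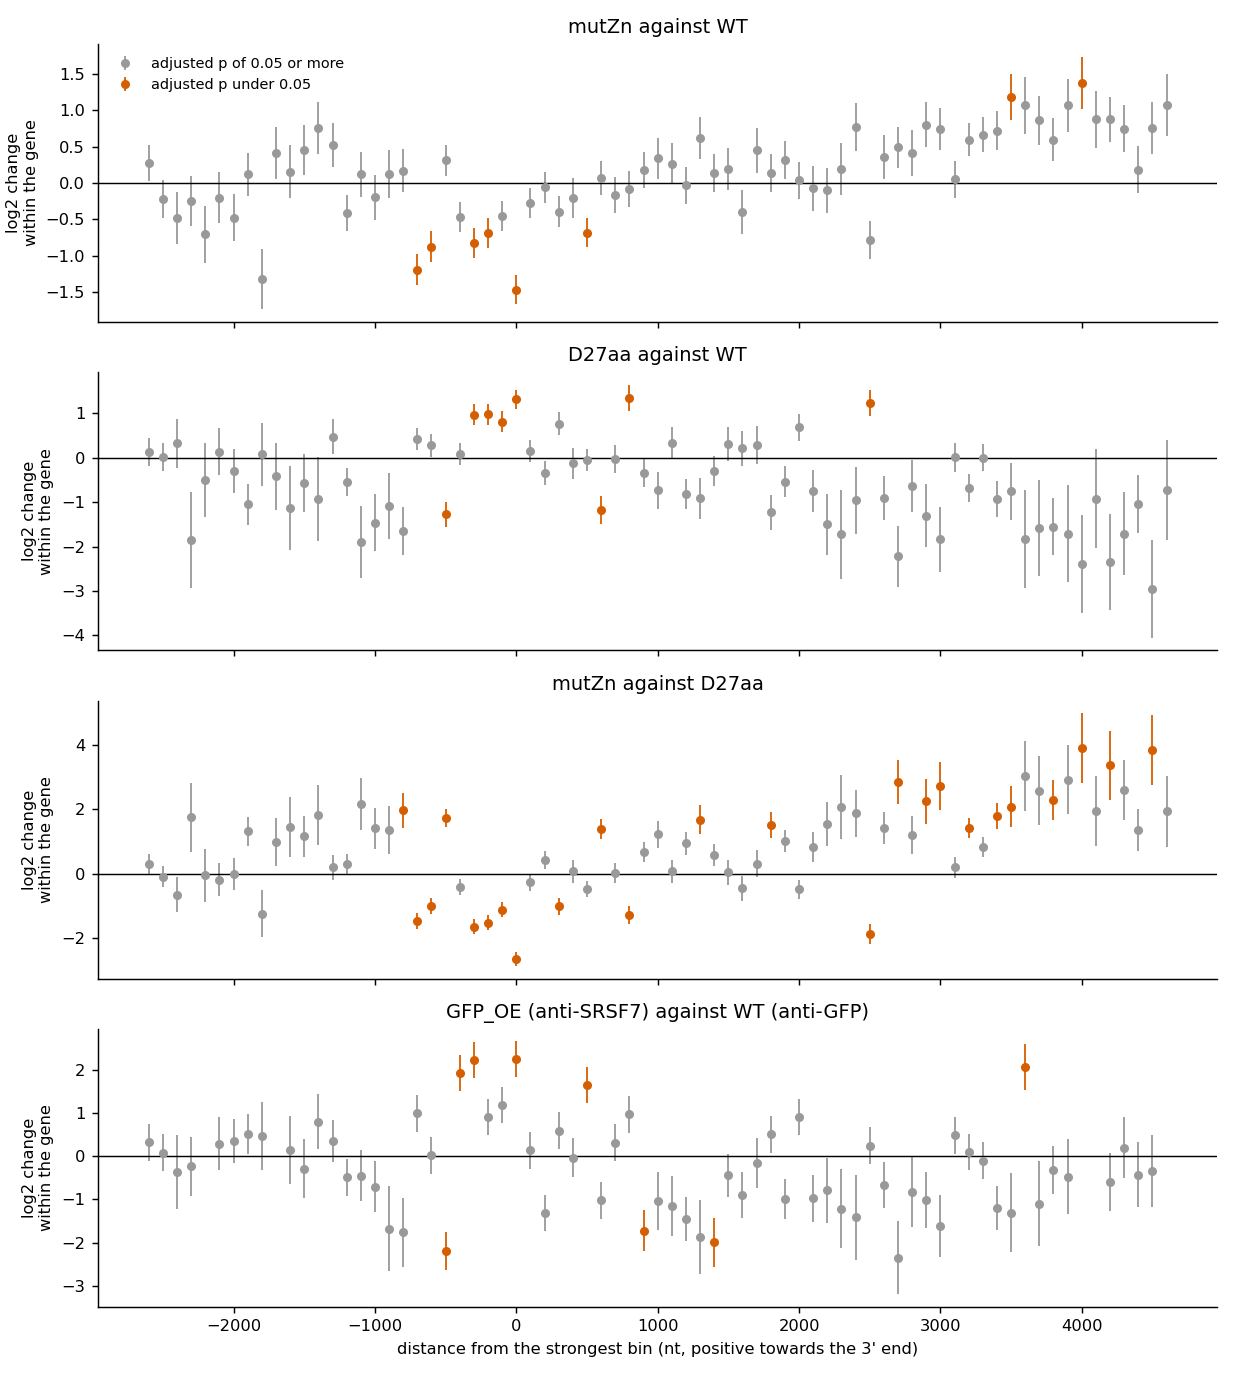
Log2 change of each 100 nt bin relative to the other bins of Srsf7 (y axis, bars are the standard error of limma) against the distance from the strongest bin (x axis, nt, positive towards the 3′ end), for 4 comparisons. Orange points passed an adjusted p of 0.05. The strongest bin at distance 0 is at -1.47 for mutZn against WT, 1.32 for D27aa against WT, -2.65 for mutZn against D27aa and 2.24 for GFP_OE against WT.

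The concentration of events in few bins and their mean position were compared over libraries. The 5 strongest bins of the anti-GFP libraries together held 30.6% and 28.8% of gene events in mutZn, 57.5% and 57.3% in D27aa, and 51.8%, 40.6% and 35.9% in WT. All mutZn values were lowest and all D27aa values highest, and the groups differed in an exact permutation test of the F statistic (p = 0.0476, 210 arrangements, smallest possible p = 0.00952). The mean position of events lay 471 and 537 nt downstream of the centre of the strongest bin in mutZn, 82.3 and 95.7 nt in D27aa, and 120, 217 and 287 nt in WT (exact permutation p = 0.0190). Without any 1 WT library the smallest p the design allows is 0.0667, and both tests gave that value. The tests over 210 arrangements count each WT library as independent, although the headers give WT libraries 3 and 4 the same replicate number and run. If these count as 1 library, no p below 0.0667 can be reached. The 5 bins were also chosen by their mean share in these same libraries. Leaving out a library of mutZn or D27aa gave p = 0.1 to 0.117 for the 5-bin share and p = 0.0333 for the mean position in exact tests over 60 arrangements. When each nucleotide was counted once, p was 0.0762 and 0.0667 for the 5-bin share and the mean position in the exact test. With libraries thinned to the fewest gene events, the exact test gave 0.0476 and 0.0190.

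The anti-SRSF7 libraries separated products of overexpressing cells. All of them held a larger share in the strongest bin than the mutZn libraries. Its share was 49.2% and 35.8% in RRM_OE, 29.2% and 26.1% in endo_OE, and 39.6% and 19.4% in GFP_OE, and the GFP_OE libraries spanned both endo_OE values. The first value of RRM_OE and of GFP_OE came from a shared sequencing run. The second value of each and both endo_OE values came from another run. Within that run the GFP_OE library lay below both endo_OE libraries. Bin 80604301 held 16.8% and 16.3% in RRM_OE, 18.5% and 17.6% in endo_OE, and 12.3% and 16.6% in GFP_OE. Bin 80604401 held 5.16% and 8.08% in RRM_OE, 11.2% and 13.3% in endo_OE, and 9.04% and 10.2% in GFP_OE. RRM_OE libraries thus lay below both other products in bin 80604401 and overlapped with GFP_OE in bin 80604301.

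None of the 22 tested bins passed in any of the 4 comparisons among these products (limma). For RRM_OE against GFP_OE 0.319% of all tested bins passed, and 0% passed for endo_OE against GFP_OE, RRM_OE against endo_OE and endo_WT against endo_OE. Limma-trend also called no Srsf7 bin. At an unadjusted p under 0.05 (limma) there was 1 of the 22 Srsf7 bins, for endo_OE against GFP_OE. Over all tested bins of that comparison there were 16 of 313, about the share that chance alone gives. The Srsf7 bin was 80603901, with 0.362% and 0.887% in endo_OE, against 1.35% and 3.68% in GFP_OE. The strongest bin had log2 changes of 0.75 ± 0.50 (SE) for RRM_OE against GFP_OE, 0.01 ± 0.49 for endo_OE against GFP_OE and 0.75 ± 0.51 for RRM_OE against endo_OE. The sign for endo_OE against GFP_OE turned with the filter and with the libraries used. These libraries held 368 to 5659 gene events, and differences of the size of these SE could not be told from 0. The mean position lay 38.8 and 39.7 nt downstream of the centre of the strongest bin in RRM_OE, -71.5 and -26.1 nt in endo_OE, where a negative value means upstream, and -10.6 and 70.6 nt in GFP_OE. Over the 3 groups the exact permutation p was 0.2 for the mean position and 0.533 for the share in the 5 strongest bins, where 0.0667 is the smallest the design allows. With the sequencing run as a block 1 bin passed for endo_OE against GFP_OE and none in the other 3 comparisons.

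The endo_WT library, from cells without overexpression, held 246 gene events. Its strongest bin held 26.0% (95% exact interval 20.6% to 32.0%), against 29.2% and 26.1% in endo_OE, and bin 80604301 held 11.8% (8.04% to 16.5%), against 18.5% and 17.6% in endo_OE. Its log2 change in the strongest bin against endo_OE was -0.38 ± 0.68, where the single library was assumed to vary like the other groups of the fit. Its nucleotide profile overlapped by 0.933 and 0.978 with those of endo_OE libraries 4 and 5.

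Antibodies were compared on SRSF7-GFP overexpressing cells, GFP_OE with anti-SRSF7 against WT with anti-GFP. The strongest bin held 39.6% and 19.4% in GFP_OE, against 19.5%, 12.6% and 10.2% in WT, so that 1 GFP_OE library fell just below WT library 2. Bin 80604301 held 12.3% and 16.6% in GFP_OE, against 7.81%, 7.12% and 6.57% in WT, with no overlap. Bin 80604501 held 0.0677% and 1.13% in GFP_OE, against 2.32%, 3.72% and 4.32% in WT, also with no overlap. Of 68 tested bins, 8 passed, 5 higher and 3 lower in GFP_OE, where 3.03% of all tested bins passed. The strongest bin had a log2 change of 2.24 ± 0.41 (adjusted p = 7e-05), bin 80604301 of 2.22 ± 0.41 (adjusted p = 9.9e-05), bin 80604401 of 1.92 ± 0.42 and bin 80603501 of 1.64 ± 0.42. Bins 80604501 (-2.20 ± 0.44), 80602601 (-2.0 ± 0.57) and 80603101 (-1.73 ± 0.48) were lower, and the sparse bin 80600401 was higher (2.06 ± 0.53, shares of 0.102% and 0.106% in GFP_OE, against 0.0286%, 0.0334% and 0.0841% in WT). Bin 80604101 had 1.19 ± 0.42 (adjusted p = 0.090).

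Single libraries decided several of these calls. Without GFP_OE library 3, 2 bins passed and the strongest bin had 1.39 ± 0.53 (adjusted p = 0.14). Without WT library 3 or WT library 4, 3 bins passed, and without both, none did (strongest bin 1.22 ± 0.79, adjusted p = 0.96), with WT library 2 alone assumed to vary like the other group. The groups share no sequencing run, so antibody and run cannot be told apart.

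In the other anti-SRSF7 libraries bin 80604501 was also low. It held no event in either RRM_OE library and in endo_WT, which allows shares of up to 0.815%, 0.457% and 1.22%. It held 0.362% and 0.205% in endo_OE. The mono immunoprecipitates, taken with anti-GFP, held 4.43% and 4.80% there, and the poly immunoprecipitates 1.28% and 0%.

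**Figure D5:**
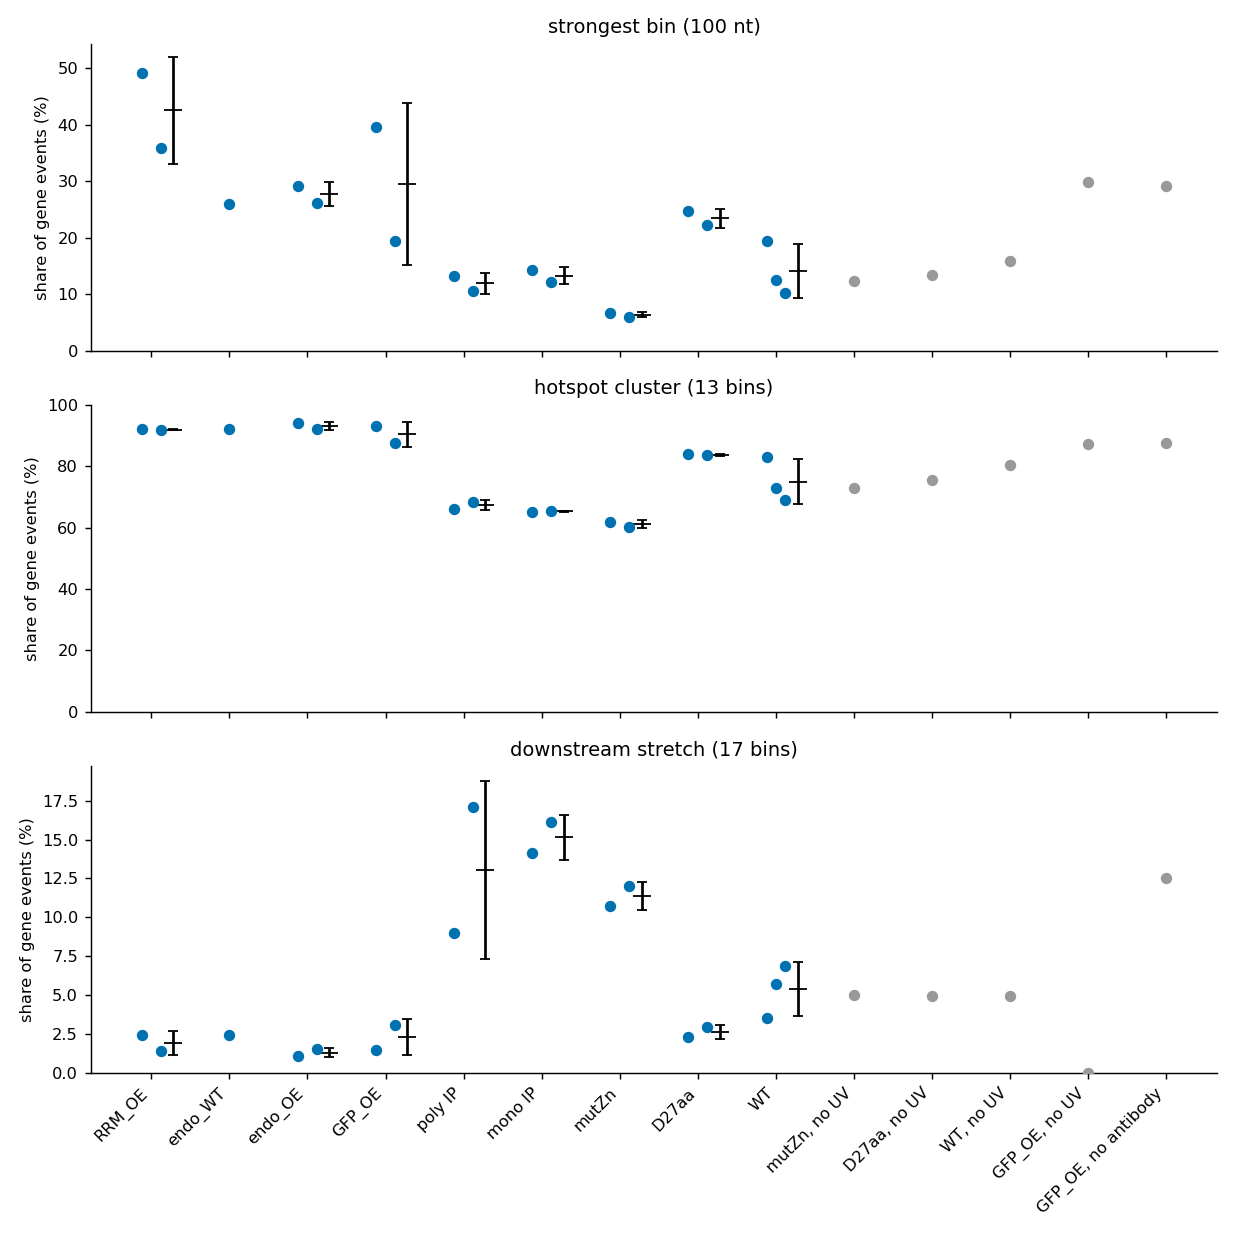
Share of gene events (y axis, percent) in the strongest bin, in the cluster of 13 bins and in the downstream stretch of 17 bins, for each group (x axis). Points are libraries (grey for those without UV or without antibody) and bars are the mean ± SD. In the downstream stretch the mono libraries reach 14.1% and 16.2%, against 3.49% to 6.88% in WT.

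The piCLIP libraries were shallow. Poly immunoprecipitates held 234 and 76 gene events and mono immunoprecipitates 1175 and 229. Of these events, 13.2% and 10.5% lay in the strongest bin in poly, against 14.3% and 12.2% in mono, and these ranges overlapped. None of 17 tested bins passed for poly against mono (limma), 0% of all tested bins passed, no Srsf7 bin had an unadjusted p under 0.05, and limma-trend called none. The strongest bin had a log2 change of -0.50 ± 1.21 (SE). In poly library 2 the 76 events lay on 35 nucleotides, with 18.4% in bin 80603901 and 13.2% in bin 80600801, against 4.27% and 1.71% in poly library 1.

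The 4 piCLIP immunoprecipitates were also set against WT iCLIP, again with no shared run. The file headers also give result type S for the piCLIP libraries and G for the WT libraries. The part of run and result type in the differences was not tested. The strongest bin did not differ beyond the error (log2 change -0.42 ± 0.71, adjusted p = 0.87). Of 26 tested bins 1 passed, where 2.43% of all tested bins passed. Bin 80599701, in the downstream stretch, held 2.14% and 0% in poly and 0.936% and 1.75% in mono, against 0.0572%, 0.159% and 0.207% in WT (log2 change 3.14 ± 0.84, adjusted p = 0.012). The groups overlapped through poly library 2. The call was lost without WT library 2, 3 or 4 (adjusted p = 0.121 to 0.157 with limma), and no bin passed without either mono library or without poly library 1. Without poly library 2, 7 of 42 bins passed, this 1 among them, where 5.46% of all tested bins passed. Over the whole downstream stretch, chr17:80599401-80601100, which is at least 3000 nt downstream of the strongest bin, the poly libraries held 8.97% and 17.1% and the mono libraries 14.1% and 16.2%, against 3.49%, 5.73% and 6.88% in WT. In mutZn this stretch held 10.7% and 12%, and in D27aa 2.30% and 2.96%. All 7 anti-SRSF7 libraries lay between 1.09% and 3.09%.

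The strongest bin was the same in each library without UV. The strongest bin held 12.3% of 438 events in mutZn without UV (95% exact interval 9.40% to 15.8%), above both UV-treated mutZn libraries (6.66% and 6.03%). This bin held 13.4% of 283 events in D27aa without UV (9.68% to 18%), below both UV-treated D27aa libraries (24.6% and 22.2%). WT without UV had 15.9% of 687 events (13.2% to 18.8%), within the range of UV-treated WT libraries. GFP_OE without UV had 29.8% of 47 events (17.3% to 44.9%) and GFP_OE without antibody 29.2% of 24 events (12.6% to 51.1%). The 9 events of mono IgG gave none in this bin (95% exact interval 0% to 33.6%). At the nucleotide level WT without UV overlapped by 0.948 with WT library 2, and by 0.773 and 0.693 with WT libraries 3 and 4. D27aa without UV overlapped by 0.285 and 0.256 with UV-treated D27aa libraries 1 and 2. When its events were moved by 3 nt, its overlap with D27aa library 1 was 0.388, against 0.285 unmoved, and its overlap with WT library 2 was 0.625, against 0.418 unmoved. The other libraries set against WT library 2 in this way overlapped best with it when not moved. In bins, WT without UV overlapped by 0.964 to 0.992 with WT libraries, which overlapped by 0.912 to 0.992 with each other. The mutZn control without UV overlapped by 0.936 and 0.956 with mutZn and by 0.933 to 0.995 with WT. That of D27aa overlapped by 0.877 and 0.891 with D27aa. How far the binned profile depends on crosslinking was not tested.

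The split between libraries was also seen at single nucleotides. The first 5 positions named here had the highest mean share over the mutZn, D27aa and WT groups of these same libraries. Libraries with concentrated events, such as D27aa, weigh most in that choice. The positions therefore illustrate the split and do not test it. Position 80604126 held 0.0483% and 0.0366% of gene events in mutZn, 2.54% and 3.55% in D27aa, and 1.29%, 0.0167% and 0.0308% in WT libraries 2, 3 and 4. Position 80604034, in the strongest bin, held 0.0564% and 0.0569% in mutZn, 2.85% and 1.95% in D27aa, and 1.37%, 0.0501% and 0.0420% in WT. At both positions WT library 2 was near D27aa and WT libraries 3 and 4 were near mutZn. Positions 80604025 and 80604035 ran the same way (0.0488% to 0.155% in mutZn, 1.48% to 1.94% in D27aa, 0.858% and 1.06% in WT library 2, and 0.0953% to 0.259% in WT libraries 3 and 4). Position 80603530 held 0.304% and 0.325% in mutZn, 1.23% and 1.36% in D27aa, and 1.86%, 0.342% and 0.244% in WT. In the anti-SRSF7 libraries of GFP_OE, endo_OE and endo_WT, position 80604415 held 2.54% and 1.71%, 3.44% and 5.26%, and 3.25%, and it was the highest position in 4 of these 5 libraries. In WT libraries 3 and 4 and in mutZn library 4 the highest position was 80604419, with 0.576%, 0.491% and 0.423%.

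The authors' deposited peak lists name crosslinked nucleotides with a score each, on libraries summed as their headers state. The gene held 2164 peak nucleotides in the mutZn list, 799 in the D27aa list, 444 in the piCLIP list and 2448 in the WT list. The header of the WT list names 4 libraries, of which 3 were analysed here, and its scores in the gene sum to 96544, above the 51152 events of those 3. Of the mutZn peaks 90.2% were also WT peaks, and of the WT peaks 79.7% were mutZn peaks. Of the D27aa peaks 95.1% were also WT peaks, which is 31.0% of the WT list. Of the mutZn peaks 31.8% were D27aa peaks, which is 86.2% of the D27aa list. Of the piCLIP peaks 94.8% were WT peaks, which is 17.2% of the WT list. The cluster held 50.7% of the mutZn peaks, 90.6% of the D27aa peaks, 74.3% of the piCLIP peaks and 47.1% of the WT peaks. The lists come from libraries of different depth, so their lengths show no change. No overlap expected by chance was computed, and no overlap over the whole genome. The WT and mutZn lists are dense in the cluster, where most D27aa and piCLIP peaks lie. A high overlap can arise from that density, so these shares are descriptions only. The lists without UV held 164 peaks for mutZn, 88 for D27aa and 289 for WT, and the IgG lists held none.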

How the data were processed

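Crosslink events on Srsf7 were analysed in 25 iCLIP and piCLIP libraries of P19 cells. Each deposited crosslink file holds, per the file headers, a signed score per mm9 nucleotide, the number of cDNAs with the strand as its sign, and the deposited peak lists hold scores of the same kind. Basecalling used CASAVA 1.4 per the submitters' processing notes, and the aligner is not given in the sources used here. Events were summed in bins of 100 nt within strand-specific windows of 15000 nt. Bins were kept where the size of the smallest replicated group, counted in libraries, was reached by libraries with at least 5 events scaled to the median depth, and where 10 events were found in all. They were fitted with limma 3.58.1 (voom, diffSplice, R 4.3.3) and adjusted by Benjamini-Hochberg over all tested bins at a threshold of 0.05. This filter was chosen after the files had been seen. Because the deposited unit is a score, count models were not used. The fits were also run on simulated data, and no error rate for these libraries is drawn from that. Concentration, overlap and permutation tests used Python 3.11.15, numpy 2.4.6 and scipy 1.17.1. Named bins were the strongest 5 of each fit and the called bins, and others printed here were chosen after their values were seen. The members and lists were chosen with earlier results of these data known. Nothing in the labels says that libraries of a group came from separate cultures, so p-values may measure technical spread. Alternatives covered the filter, tool, bin width and start, library total, depth, run, replicate number, position counting and each library left out.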

Additional observations from a re-analysis of the deposited data

Results flagged for a closer look

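Poly immunoprecipitate 2 stood apart from the other piCLIP immunoprecipitates in the concentration of its Srsf7 events on single nucleotides. It had 375 same-nucleotide event pairs per 10000, with 37.0 in poly immunoprecipitate 1 and 33.0 and 33.7 in the mono immunoprecipitates. Its gap to the nearest library was 0.988 of the range of the 4 libraries, above Dixon's 95% critical value. This was 1 of 6 measures examined in this way, and 5 did not pass, and chance alone passes this value in a small share of groups. The library held 76 events on 35 nucleotides, with 14.5% of them at position 80603953.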

How the results depend on the processing

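The extent of each profile difference was summarised as the length in nt of all bins that passed, and it moved with the processing, whereas the direction of the strongest bin was kept in the alternatives that gave a value for it, 15 for mutZn against WT, 14 for D27aa against WT, 12 for mutZn against D27aa and 12 for GFP_OE against WT. Other bin widths, shifted bins and leaving out the strongest bin gave no such value. The alternatives include each position counted once, where 90 to 100 positions of the strongest bin were already hit in these libraries. Depth can set the sign in that setting, so it bears little on the direction. The part of depth was not tested. For mutZn against WT (800 nt), the length was 200 nt with a filter of 3 events in total, 0 nt with limma-trend, 0 nt with each position counted once, 1300 nt with bins shifted by 50 nt, 100 nt after thinning to the shallowest library, 1600 nt without both WT libraries 3 and 4, 300 nt with the run as a block, and 200 to 1100 nt with 1 library left out. For D27aa against WT (800 nt) it was 200 nt with the 3-event filter, 200 nt with limma-trend, 0 nt with each position counted once, 500 nt with shifted bins, 100 nt after thinning, 100 nt without both WT libraries 3 and 4, 1300 nt with the run as a block, and 100 to 1700 nt with 1 library left out. For mutZn against D27aa (2400 nt) it was 900 nt with the 3-event filter, 0 nt with each position counted once, 1000 nt after thinning, 1300 nt with the run as a block, 1400 nt with both groups alone in the fit, and 600 to 1600 nt with 1 library left out. For GFP_OE against WT (800 nt) it was 200 nt with the 3-event filter, 500 nt with limma-trend, 0 nt with each position counted once, 300 nt with bins of 50 nt, 300 nt after thinning, 0 nt without both WT libraries 3 and 4, and 200 to 1100 nt with 1 library left out. For piCLIP against WT (100 nt) it was 0 nt with the 3-event filter, the stricter filter, each position counted once, bins of 50 nt, thinning, and without both WT libraries 3 and 4. It was 200 nt with the total over the tested bins, 400 nt with bins of 200 nt, 200 nt with shifted bins, and 0 to 700 nt with 1 library left out. For endo_OE against GFP_OE it was 100 nt with the run as a block, and no bin passed in the other comparisons under any alternative run. The share of all tested bins that passed moved with the processing too. For mutZn against WT it was 0.00105% with the 3-event filter and 7.15% with the stricter filter. A change of length need therefore not be particular to Srsf7. The cause of these moves was not tested.

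Whether equal replicate numbers pair the samples could not be settled by correlation with 2 pairs per comparison: the correlation of deviations was -0.0702 for mutZn and WT, 0.479 for RRM_OE and GFP_OE and 0.483 for poly and mono. The numbers of RRM_OE and GFP_OE coincide with sequencing runs. Those of mutZn and WT do not. WT libraries 3 and 4 share a header replicate number and run, and mutZn libraries 3 and 4 differ in both. The block for mutZn against WT thus rests on a pairing that the headers do not bear out. With the replicate number as a block, 2100 nt passed for mutZn against WT, and the strongest bin had a log2 change of -0.95. No bin passed with this block for RRM_OE against GFP_OE (strongest bin 0.81) or poly against mono (-0.09).

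Some changes turned their sign. Bin 80603501 had 0.36 (limma-trend), 0.019 (strongest bin left out) and 0.42 (each position once) for D27aa against WT, and 0.076 (3-event filter) for mutZn against D27aa. The strongest bin had -0.18 (3-event filter), -0.084 (stricter filter), -0.10 (thinned), -0.70 (without GFP_OE library 4) and -0.07 (without endo_OE library 4) for endo_OE against GFP_OE, and -0.70 to 0.74 over all libraries left out in turn. It had 0.39 for endo_WT against endo_OE and 0.14 for poly against mono with each position counted once. For piCLIP against WT it had 0.047 (stricter filter), 0.73 (each position once) and 0.10 (thinned).

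The permutation p of the 5-bin share was 0.0762 with each position counted once and 0.0667 to 0.117 with 1 library left out (exact test), and that of the mean position 0.0667 and 0.0333 to 0.0667. After thinning to the fewest gene events the exact test gave 0.0476 for the 5-bin share and 0.0190 for the mean position. With each position counted once, the gene's share was 0.968% in RRM_OE, 0.803% in endo_OE, 0.460% in GFP_OE, 0.0916% in endo_WT, 0.0651% in mutZn, 0.344% in D27aa, 0.334% in WT, and 0.553%, 0.680% and 0.601% in mutZn, D27aa and WT without UV. This share was lower in deeper WT libraries, with 0.600%, 0.275% and 0.128% in libraries 2, 3 and 4, which held 221746, 1099389 and 3952779 events. These group means thus cannot be compared between groups of different depth. With each position counted once, the strongest bin held 9.48% in D27aa and 10.8% in WT without UV.

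Among peaks with a score of at least 10, and with peaks within 5 nt counted as shared, the shares were 13.6% and 42.0% of mutZn in D27aa, 92.5% and 95.7% of mutZn in WT, 90.3% and 90.7% of D27aa in mutZn, 98.0% and 97.1% of D27aa in WT, 12.7% and 41.1% of WT in D27aa, 0.792% and 47.2% of WT in piCLIP, and 100% and 97.7% of piCLIP in WT. Of WT peaks 92.1% were mutZn peaks within 5 nt. Chance overlap was not computed for these shares either. Depth limits the piCLIP, anti-SRSF7 and control profiles, where the gene held 1 to 5659 events.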

Other observations

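Over 18 UV-treated immunoprecipitates and 14 windows of 15000 nt with enough events, the windows whose share of library events followed that of Srsf7 most closely were on the minus strand, at chr17:19065001-19080000 (r = 0.374), chr15:5835001-5850000 (r = 0.369) and chr4:42090001-42105000 (r = 0.358). These are descriptions over libraries that differ in antibody, product and depth.

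Position 80604415 held 2.99% of gene events in poly library 1, none of the 76 events in poly library 2, and 2.64% and 1.75% in mono, against 1%, 0.284% and 0.210% in WT libraries 2, 3 and 4. For poly library 2 a count of 0 allows a share of up to 3.95%.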
